A study of Mus musculus with 4 samples.

Results

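The cells described here were Cd48+ hematopoietic stem and progenitor cells (HSPCs) in which 8 other genes were not seen. Within each pool, cells were kept when their log total of unique molecular identifiers (UMIs, counted RNA molecules) lay within 2 SD of the pool mean, and a kept cell was a member when it held at least 1 Cd48 UMI and none for Flt3, Dntt, Klf1, Car1, Pf4, Elane, Cpa3 or Il7r. Of 14915 kept cells, 394 were members, 2.64% (exact 95% interval 2.39% to 2.91%). Members were thus chosen by their measured UMI counts, so the values of these 9 genes describe the choice and are not results.

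HSPCs were LSK Flt3- cells (no lineage markers, Sca-1+, c-Kit+) sorted from bone marrow of male C57BL/6-CD45.2 mice, and RNA was captured per cell on the 10x Chromium system. Untreated mice of 2 ages were compared, young at 2 to 3 months and aged at 17 to 18 months. Each age had pools A and B, each from 2 or 3 mice, and the letter also names the facility (HalioDX for A, TGML for B), so 2 pools per age were the replicates. The age of a pool was taken from its title and source name. In young B and aged A a longer free-text note gives the opposite age. A pool mixes animals, so the spread between mice was not measured, and a gate on Flt3 protein does not remove every cell with Flt3 RNA.

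CD48 is a cell surface protein of the SLAM family that is held in the membrane by a lipid anchor and binds CD244. Mouse long-term stem cells lack CD48 and carry CD150 (Slamf1), whereas most multipotent progenitors have gained CD48. The 8 genes held at 0 mark other fates or stages: Flt3 and Il7r are cytokine receptors of lymphoid-biased progenitors, Dntt encodes the terminal transferase of lymphoid precursors, Klf1 and Car1 an erythroid factor and a carbonic anhydrase, Pf4 a platelet chemokine, Elane neutrophil elastase and Cpa3 a mast cell protease.

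Cd48 (ENSMUSG00000015355) is a protein-coding gene on the plus strand of chromosome 1 from 171682009 to 171705258 (GRCm38, GENCODE M21). The stretch before its start is shown because Cd48 defined the cells, and those of Plac8 and Nkg7 because these 2 genes had the lowest p-values when members were compared with Cd48-zero cells. The 3 sequences are from RefSeq (GRCm38.p6), read 5′ to 3′ on the strand of the gene, and stop before the first exon annotated in either source. Capitals mark TGTGGT or its reverse complement ACCACA, the core bound by RUNX factors, and GAGGAA or TTCCTC, a core bound by PU.1; both strands were searched and no matches overlapped.
Cd48, chr1:171681742-171681991, plus strand: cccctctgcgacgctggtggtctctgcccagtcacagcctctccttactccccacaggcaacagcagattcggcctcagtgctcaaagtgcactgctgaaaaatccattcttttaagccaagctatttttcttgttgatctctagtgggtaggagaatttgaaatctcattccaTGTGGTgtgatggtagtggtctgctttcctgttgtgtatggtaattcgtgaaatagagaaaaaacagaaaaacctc
Plac8, chr5:100572246-100572455, minus strand: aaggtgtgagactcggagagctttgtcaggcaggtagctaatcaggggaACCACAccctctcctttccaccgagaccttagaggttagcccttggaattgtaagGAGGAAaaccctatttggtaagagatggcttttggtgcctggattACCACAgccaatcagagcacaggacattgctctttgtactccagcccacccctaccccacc
Nkg7, chr7:43436888-43437072, plus strand: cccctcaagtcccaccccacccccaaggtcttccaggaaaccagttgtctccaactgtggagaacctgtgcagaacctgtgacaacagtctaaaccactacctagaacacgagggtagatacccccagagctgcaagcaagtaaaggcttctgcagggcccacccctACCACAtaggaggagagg
Each of the 3 held the RUNX letters, 1 match for Cd48, 2 for Plac8 and 1 for Nkg7. Over all 32851 RefSeq promoters cut to the same lengths, 14%, 12.2% and 10.7% held them. The PU.1 letters were found only before Plac8, against 19.6% of promoters of that length. These matches describe the letters in the windows and no binding was measured.

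Members numbered 158 of 5189 kept cells in young pool A (3.04%, exact 95% interval 2.59% to 3.55%) and 168 of 2244 in young pool B (7.49%, 6.43% to 8.65%). They numbered 38 of 3328 in aged pool A (1.14%, 0.809% to 1.56%) and 30 of 4154 in aged pool B (0.722%, 0.488% to 1.03%). Both aged pools were below both young pools, and the intervals hold counting error only. The mean share was 5.27% ± 3.14 (SD, n = 2) in young and 0.932% ± 0.297 (SD, n = 2) in aged pools, a difference of -4.33 percentage points, -1.90 within letter A and -6.76 within letter B. The two-sided exact permutation test gave p = 0.333, the smallest that 2 pools against 2 can give. The difference was -2.11 points without young B and -6.55 without young A. Cd48 itself was at 76.8 and 69.5 CPM (UMIs of a gene per 1000000 UMIs) over all kept cells of young A and B and 31.6 and 11.6 CPM in aged A and B, so fewer members and less Cd48 RNA per cell cannot be told apart.

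Depth entered the rule, so shares were also computed after thinning each kept cell to 3000 UMIs, which left out 0, 50, 176 and 4 shallower cells of young A, young B, aged A and aged B. Members then made up 4.68% and 7.06% of young pools and 1.05% and 0.699% of aged pools. The order of the pools stayed as it was. Thinning raised the share only in young pool A, where the 8 genes were seen most widely.

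**Figure D1:**
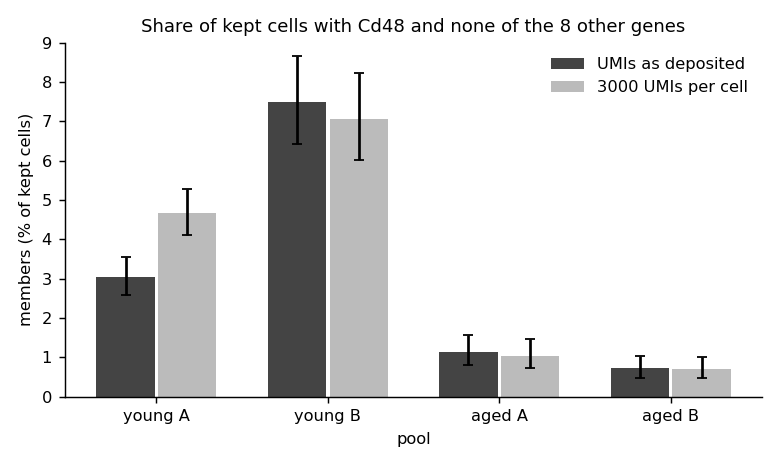
Members as a percent of kept cells in each pool, with UMIs as deposited (dark bars) and after thinning to 3000 UMIs per cell (light bars); error bars are exact 95% binomial intervals. Young pools lie at 3.04% and 7.49% and aged pools at 1.14% and 0.722% as deposited.

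The 8 genes removed most Cd48+ cells. A Cd48 UMI was held by 1232, 503, 282 and 164 cells of young A, young B, aged A and aged B, and members were 12.8%, 33.4%, 13.5% and 18.3% of them. Between 12.2% and 18.7% of Cd48+ cells per pool were lost to a single UMI of a single gene. Car1 was seen in 25.1% of kept cells of young A and 5.21% of young B, and Elane in 16.5% of aged A and 2.41% of aged B, so the gate cut deeper in the pools of letter A. When 1 UMI was allowed for each gene, members numbered 532, 310, 98 and 55, or 10.3%, 13.8%, 2.94% and 1.32% of kept cells, and aged pools stayed below young ones.

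At the threshold, 113 of 158, 84 of 168, 31 of 38 and 19 of 30 members had just 1 Cd48 UMI. Their median depths were 5686, 6755, 5416 and 7897 UMIs, against 5084, 5523.5, 5269 and 6240 in the cells just outside it, which passed the other 8 genes with no Cd48 UMI. The highest Cd48 count in a member was 18, in aged pool A. Cells with both a Procr and a Slamf1 UMI, which by protein should lack CD48, held a Cd48 UMI in 10.5%, 2.90%, 3.95% and 1.12% of cells, against 23.7%, 22.4%, 8.47% and 3.95% of all kept cells. Median depths of these reference cells were 6315, 6347, 6591 and 7731.5 UMIs against 6075, 6284, 5674 and 6719. Detection among all cells was thus above the level in reference cells in every pool, and single UMIs in some members cannot be told apart from that background.

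Members carried the genes of the sort. Kit, the stem cell factor receptor, was seen in 47.5% and 45.8% of members in young A and B and 60.5% and 33.3% in aged A and B. Ly6a (Sca-1) was seen in 56.3%, 70.8%, 44.7% and 70.0%. In Cd48-zero cells, which passed the other 8 genes with no Cd48 UMI, Kit was seen in 44.5%, 38.4%, 57.9% and 39.0% and Ly6a in 57.2%, 75.6%, 65.2% and 83.6%. In cells thinned to 3000 UMIs, with classes redrawn, both were seen less often in members of 4 of 4 pools. The mean differences were -2.47 ± 1.68 points for Kit and -14.1 ± 8.53 points for Ly6a (SD, n = 4 pools). The 8 genes were absent by construction, and UMIs of other lineage genes were common. A UMI for Mpo, Ctsg or Prtn3, granule proteins of neutrophil precursors, was found in 369 of 394 members (93.7%), mostly through Prtn3 (358 cells), but also in 95.7% of Cd48-zero cells. Gata1, Itga2b or Gp1bb of the megakaryocyte and erythroid branches was found in 32.3%, 17.9%, 26.3% and 26.7% of members and 14.1%, 7.61%, 26.8% and 16.1% of Cd48-zero cells of young A, young B, aged A and aged B. Ms4a2, Gzmb or Mcpt8 of mast cells and basophils was found in 38.6%, 18.5%, 31.6% and 10.0% against 34.3%, 14.1%, 28.7% and 6.88%. Only 12 members held none of these 9 genes. The like share of the granule genes came mostly through Prtn3. Mpo alone was seen in 36.7%, 42.9%, 28.9% and 13.3% of members against 22.2%, 10.1%, 24.2% and 2.70% of Cd48-zero cells. These lineage shares were not taken at equal depth, and members were deeper than Cd48-zero cells in every pool. In cells thinned to 3000 UMIs, with classes redrawn, Itga2b was seen more often in members of 1 pool and less often in 3. Its differences were 5.69, -1.25, -7.36 and -2.82 points in young A, young B, aged A and aged B. Whether single UMIs of these genes came from free RNA was not tested, and Igha, an antibody gene, had a UMI in 28 of 38 members of aged A. Lineage RNA beyond the 8 genes was compared only with that of Cd48-zero cells. The summed granulocyte and monocyte list was higher in members of 4 of 4 pools (log2 ratios 0.67, 0.80, 0.49 and 0.42). This sum was taken over all members, with the mature cells described below left in. Its most abundant gene was Plac8 in members and Prtn3 in Cd48-zero cells, so its genes did not move alike. Prtn3 was seen in 89.9%, 92.3%, 84.2% and 96.7% of members against 83.6%, 92.5%, 96.7% and 99.2% of Cd48-zero cells, higher in 1 pool and lower in 3. The megakaryocyte and erythroid list was lower in 4 of 4, and the lymphoid list was higher in 1 and lower in 3. The mast cell and basophil list was higher in 2 and lower in 2.

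A few members had the RNA of mature cells. With at least 50 UMIs of Igkc and Jchain, 2 UMIs of Cd3d, Cd3e, Cd3g, Klrd1 and Ncr1, or 10 UMIs of Ly6c2, limits set after the data were seen, 2, 4, 2 and 3 members of young A, young B, aged A and aged B were such cells, and none of the 11 held a Kit UMI. They made up 0.860%, 1.89%, 5.29% and 10.9% of the UMIs summed over members. Results that rest on them are given with and without these cells. Of 394 members, 10 had a barcode that also occurred in another pool.

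The first comparison asked what else differed between Cd48+ cells and the 5953 cells that passed the same 8 genes with no Cd48 UMI (1217, 894, 1327 and 2515 in young A, young B, aged A and aged B). UMIs were summed per pool and class and tested with edgeR's quasi-likelihood test with pool as a block and Benjamini-Hochberg adjustment. Members were richer in genes of DNA replication and early myeloid cells and poorer in stem cell genes. Genes of mitosis, as a summed list, were higher in members of 3 of 4 pools. Of 10551 genes tested outside the rule, 1092 (10.3%) were called, 639 higher (6.06%) and 453 lower (4.29%) in members. The median log2 fold change over all genes was -0.01. Summed counts cannot tell fewer cells with a gene from less RNA per cell.

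Members were also deeper than Cd48-zero cells, with medians of 5801.5, 7762.5, 5699.5 and 8489.5 UMIs against 5084, 5523.5, 5269 and 6240. After thinning, with classes redrawn at 3000 UMIs, 715 genes were called, 309 higher and 406 lower, so the balance of calls turned towards lower genes. Of the 1092 genes, 1053 were tested after thinning, 1043 kept their direction and 553 were called again. In the thinned cells 18 of 20 S phase genes were higher (median 0.88), 14 of 22 G2 and mitosis genes were higher (median 0.91) and 17 of 22 stem cell identity genes were lower (median -1.15), beside a median of -0.08 over all genes. Without a block for pool none was called by edgeR, with 847 at an unadjusted p below 0.05. Without young A 454 genes were called and without young B 480.

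Among genes of the granulocyte and monocyte list, 9 of 16 tested (of 20) were higher and none lower, with a median log2 fold change of 0.90. Plac8 (ENSMUSG00000029322, chromosome 5 from 100553725 to 100572245, minus strand), a cysteine-rich protein of myeloid and lymphoid progenitors, was at 987, 1320, 528 and 603 CPM in members of young A, young B, aged A and aged B. In Cd48-zero cells it was at 277, 366, 72.7 and 80.4 CPM. The groups did not overlap, and the log2 fold change was 2.28 ± 0.13 (SE; adjusted p = 1.27e-11, edgeR). Nkg7 (ENSMUSG00000004612, chromosome 7 from 43437073 to 43438249, plus strand), a granule membrane protein of cytotoxic cells, was at 238, 400, 126 and 285 CPM in members and 65.2, 88.7, 29.3 and 30.8 CPM in Cd48-zero cells. Every pool of members was above every pool of Cd48-zero cells, with a log2 fold change of 2.26 ± 0.13 (SE; adjusted p = 1.3e-11, edgeR). Mpo lies on chromosome 11 from 87793581 to 87804413 and encodes the myeloperoxidase of neutrophil granules. It was at 141, 170, 162 and 55.5 CPM against 47.9, 24.0, 50.7 and 4.42 CPM. Its log2 fold change was 2.16 ± 0.19 (SE; adjusted p = 1.87e-08, edgeR), and values of members were again all higher.

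Among cell cycle genes, those of S phase were mostly higher in members. In the S phase list 20 of 21 tested genes (of 22) were higher and none lower, with a median log2 fold change of 1.10. Tyms, which makes thymidylate for DNA synthesis, was at 127, 164, 104 and 126 CPM in members and 60.9, 62.7, 36.5 and 49.9 CPM in Cd48-zero cells (log2 fold change 1.28 ± 0.11, SE). Mcm7 of the replicative helicase (1.10 ± 0.10, SE), the DNA ligase Lig1 (1.18 ± 0.12, SE) and Hells (1.39 ± 0.14, SE) were also higher in 4 of 4 pools. In the G2 and mitosis list 20 of 22 genes were higher, with a median of 1.06, by edgeR, whereas DESeq2 called 11.

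The mitotic genes differed between pools more than the replication genes did. Summed over the G2 and mitosis list, members held 1564, 1178, 257 and 1516 CPM against 685, 660, 400 and 449 CPM in Cd48-zero cells. Aged pool A was thus the exception, with members below Cd48-zero cells. Top2a, the topoisomerase that untangles replicated chromosomes, was higher in members of all 4 pools, at 182, 179, 45.1 and 178 CPM in members and 72.9, 75.6, 35.7 and 44.5 CPM in Cd48-zero cells (log2 fold change 1.34 ± 0.12, SE; adjusted p = 5.27e-08, edgeR). Birc5, a survival protein of dividing cells, was lower in members of aged A (9.02 against 33.4 CPM) and higher in the other 3 pools (136, 131 and 163 against 64.6, 50.7 and 46.2 CPM). The summed S phase list was higher in members of all 4 pools, at 1893, 2161, 1551 and 1875 CPM against 1097, 1054, 780 and 691 CPM.

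Of 15 cyclins, kinases and inhibitors, 3 were higher and 3 lower. Cdk6 is a G1 kinase gene (chromosome 5, start 3341485, end 3531008) and was at 320, 307, 176 and 196 CPM in members and 114, 111, 94.2 and 97.3 CPM in Cd48-zero cells (log2 fold change 1.30 ± 0.11, SE; adjusted p = 1.32e-08, edgeR), and the related kinase Cdk4 rose by 0.50 ± 0.09 (SE). The inhibitor Cdkn1c was at 34.2, 5.52, 90.2 and 14.8 CPM against 96.9, 12.0, 111 and 27.6 CPM (-1.11 ± 0.19, SE; -0.65 and not called without young A), and Ccnd2, a D-type cyclin, was lower in 4 of 4 pools (-0.42 ± 0.09, SE). Ribosome biogenesis genes were higher in 7 of 18, with Myc at 0.74 ± 0.10 (SE), while Mycn was lower (-0.82 ± 0.12, SE). Ribosomal proteins leaned the other way, with 19 of 77 lower and 1 higher (median -0.15), and 9 of 75 tested oxidative phosphorylation genes were higher and none lower (median 0.15). By DESeq2, 27 ribosomal proteins were lower, and 23 oxidative phosphorylation genes were higher and 1 lower.

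**Figure D2:**
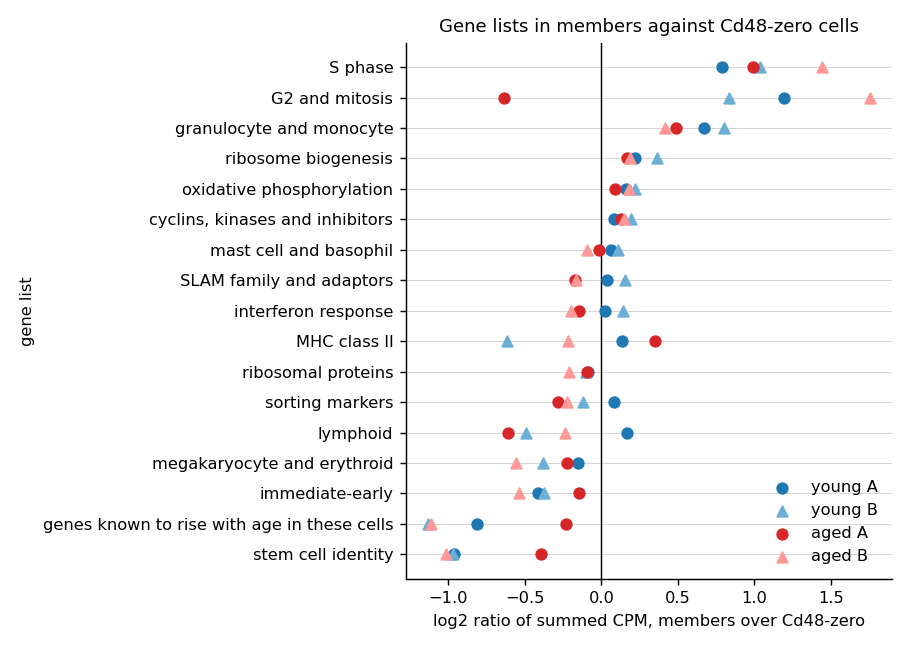
For each gene list, the log2 ratio of summed CPM in members over Cd48-zero cells of the same pool (blue young, red aged; circles letter A, triangles letter B). S phase genes lie to the right of 0 and stem cell identity genes to the left in all 4 pools, and the G2 and mitosis point of aged A lies at -0.64.

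Stem cell genes fell. Of the 22 genes of the stem cell identity list 17 were lower in members and none higher, and the median log2 fold change was -0.99. Mllt3 (ENSMUSG00000028496, chromosome 4 from 87769925 to 88033364, minus strand), a chromatin factor that maintains stem cells, was at 69.3, 49.7, 248 and 96.2 CPM in members and 234, 181, 393 and 366 CPM in Cd48-zero cells. Members were lower in every pool, although members of aged A were above the Cd48-zero cells of both young pools (log2 fold change -1.58 ± 0.14, SE; adjusted p = 3.34e-08, edgeR). The transmembrane protein genes Ifitm1 (-0.83 ± 0.09, SE) and Pdzk1ip1 (-1.19 ± 0.13, SE) were lower in 4 of 4 pools. The fall of the summed list was smallest in aged A, with a log2 ratio of -0.39 against -0.96, -0.97 and -1.01 in young A, young B and aged B.

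Sorting markers went both ways, 4 higher and 6 lower of 14 tested (of 16). Cd34, the sialomucin gained by short-term stem cells, was at 451, 364, 198 and 200 CPM in members and 211, 193, 91.4 and 48.7 CPM in Cd48-zero cells (log2 fold change 1.18 ± 0.12, SE; adjusted p = 1.09e-07, edgeR). Procr (EPCR) was at 73.1, 79.4, 158 and 137 CPM in members and 147, 155, 220 and 238 CPM in Cd48-zero cells (-0.87 ± 0.11, SE). Slamf1, the CD150 gene, was at 7.59, 1.38, 18.0 and 14.8 CPM against 15.6, 11.8, 48.4 and 50.6 CPM (-1.69 ± 0.30, SE; adjusted p = 0.000337, edgeR). Only 8, 2, 3 and 4 members held a Slamf1 UMI, too few for a comparison within members.

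Of 12 other genes of the SLAM family and its adaptors 6 were tested, and 1 was higher and 1 lower (median -0.07). The higher one was Cd244, the receptor that binds CD48, at 32.3, 35.2, 4.51 and 18.5 CPM in members and 4.19, 7.38, 0.95 and 0.763 CPM in Cd48-zero cells. Its log2 fold change was 2.75 ± 0.32 (SE; adjusted p = 1.59e-06, edgeR), and members were above Cd48-zero cells in each pool. In aged A and B its member values came from sums of only 221738 and 270375 UMIs. They thus rest on very few counts, fewest in aged A. Cd244 lies on chromosome 1 from 171559193 to 171609746, upstream of Cd48 in the same cluster of SLAM genes. The lower one was Slamf1.

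Counts for other branches are to be read against the 6.06% of all genes that were higher and the 4.29% that were lower, and several lie near these shares. In the lymphoid list 2 of 12 tested genes were higher, among them Satb1 (1.38 ± 0.31, SE), a chromatin organizer of lymphoid cells, and 2 lower, Gimap6 and Bcl11a (median -0.02). Satb1 and Bcl11a were not called without young A (1.65 and -0.38) or young B (1.38 and -0.36). In the megakaryocyte and erythroid list 2 of 20 were higher and 5 lower, among them Vwf (-1.52 ± 0.26, SE), the von Willebrand factor, and the factor Fli1 (-0.58 ± 0.12, SE). In the mast cell and basophil list 1 of 6 was lower, Gata2 (-0.47 ± 0.11, SE). Immediate-early genes were lower in 4 of 9 (median -0.41), of which Egr1 (-0.46), Zfp36 (-0.52) and Fos (-0.44) were not called without young A. The counts were for MHC class II genes 1 higher and 2 lower of 6 (by DESeq2 none was lower), and for interferon response genes 1 higher of 10, Ifi27 (0.53 ± 0.10, SE). Genes known to rise with age in stem cells were lower in 9 of 14 (median -0.82), with Nupr1 at 10.4, 6.21, 356 and 314 CPM in members and 20.6, 34.5, 433 and 620 CPM in Cd48-zero cells.

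Over all genes, listed or not, the called genes with the largest rise that was shared by every pool were Ly6c2, BC035044, Trbc2, Lgals3, Trac, Tespa1, Itgal, Irf8, Bpifc and Cd244 (log2 fold changes 4.15 to 2.75). Several of these rested on very few counts in aged members. Bpifc was at 4.51 and 3.70 CPM in aged A and B and Itgal at 9.02 and 11.1 CPM. Trac and Cd244 were each at 4.51 CPM in aged A. BC035044 (ENSMUSG00000090164), which lies on chromosome 6 between 128849090 and 128891126, was at 43.6, 71.8, 36.1 and 40.7 CPM in members and 6.88, 8.11, 1.49 and 0.436 CPM in Cd48-zero cells (3.44 ± 0.33, SE), and at 3.26 without the cells of mature type. Tespa1, a signalling protein of lymphocyte receptors, was at 2.93 and 2.88. For Irf8, a monocyte and dendritic factor, and Lgals3, a galectin of macrophages, the values went from 2.88 to 1.27 and from 3.26 to 1.86. Ly6c2 UMIs lay mostly in single cells, with 44 of 63 in 1 cell of young B, 19 of 19 in 1 cell of aged A and 53 of 66 in 1 cell of aged B. Trbc2 and Trac are constant regions of the T cell receptor, and without the cells of mature type both fell under the filter on low counts, as did Ly6c2. Trac was not called without young A (2.90) or young B (2.59), and Bpifc not without young A (3.02) or aged B (2.62).

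The largest falls were in genes of few counts. Gm15234 had no UMI in members and 3.74, 3.13, 2.98 and 4.42 CPM in Cd48-zero cells, and Amotl2, Meis3, Inhba, Rasl11a, Tnfsf4, Ptpn21, Smarcd3, Slc7a7 and Fads3 followed at log2 fold changes of -3.52 to -2.61. Fads3, a fatty acid desaturase family gene, was at 0.949, 1.38, 0 and 3.70 CPM against 5.83, 6.27, 18.9 and 18.4 CPM. Slc7a7, an amino acid transporter, was at 0.949, 1.38, 4.51 and 0 CPM against 6.88, 7.56, 14.2 and 14.4 CPM. Apart from Fads3 and Slc7a7, these genes were not called without young A, and Gm15234, Amotl2, Meis3, Rasl11a, Tnfsf4, Ptpn21 and Smarcd3 not without young B either, with no change of sign. In thinned cells Fads3 (-1.61) and Slc7a7 (-0.70) were not called.

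Markers of other cells moved with some of these results. The B and plasma list held 1797, 67.6, 10824 and 26471 CPM in members and 538, 928, 3038 and 1551 CPM in Cd48-zero cells, with 5 of 9 genes seen and Igkc the most abundant. Jchain rose by 2.32 on the log2 scale (1.66 and not called without aged B, 2.01 without young A), and the value was 0.08 without the cells of mature type. The T and NK list held 45.5, 45.6, 9.02 and 85.1 CPM against 8.98, 9.41, 6.92 and 4.74 CPM, led by Thy1, which is also a marker of stem cells (1.90 ± 0.28, SE; 1.33 without the cells of mature type, and 0.91 and not called in thinned cells). The red cell list was at 12.3, 17.9, 13.5 and 11.1 CPM in members and 12.3, 28.6, 22.4 and 468 CPM in Cd48-zero cells, so the 3 lower globin genes (Hba-a1, Hba-a2 and Hbb-bs) rested on aged B. Without it they were at -1.74, 0.31 and -0.41 and not called. Hba-a1 and Hba-a2 are near copies and their counts are uncertain. Mature neutrophil and monocyte markers stayed at 3.70 to 9.02 CPM in members with 4 of 8 seen, led by Cd14, and stroma and vessel markers at 0 to 4.51 CPM with 2 of 5 seen, led by Kdr.

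Shares of cells were compared at equal depth. With 3000 UMIs per cell and classes redrawn at that depth, members with a Plac8 UMI made up 84.0%, 94.2%, 51.5% and 65.5% of young A, young B, aged A and aged B, and Cd48-zero cells 45.9%, 46.8%, 18.2% and 17.2%. Cd34 was seen in 67.1%, 67.7%, 39.4% and 62.1% of members against 44.0%, 42.2%, 21.4% and 14.3%. Mpo was seen in 32.9%, 30.3%, 21.2% and 20.7% against 14.3%, 6.87%, 13.5% and 1.25%. The mean difference was 41.8 ± 7.30 points for Plac8, 28.6 ± 13.2 for Cd34 and 17.3 ± 6.75 for Mpo (SD, n = 4 pools), each positive in 4 of 4 pools.

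Of the proliferation genes, Mki67, expressed in cycling cells, was seen in 14.4%, 11.6%, 12.1% and 10.3% of members and 6.62%, 3.78%, 3.11% and 3.21% of Cd48-zero cells, a mean difference of 7.94 ± 0.78 points (SD, n = 4). At 2000 UMIs it was 3.47 ± 3.52 points, with aged A at 0.032. Mcm5 of the replicative helicase differed by 10.3 ± 2.73 points and Top2a by 12.4 ± 10.1 points, the latter higher in 3 of 4 pools. Procr went the other way, at 17.7%, 17.4%, 27.3% and 13.8% of members against 30.8%, 35.3%, 48.8% and 47.5% (-21.6 ± 8.81 points), and so did Slamf1 (-6.17 ± 4.47 points). At 2000 UMIs the Slamf1 difference was -2.83 points and aged A was higher in members by 0.669 points. Gata1, the erythroid and mast cell factor, differed by 1.87 ± 3.88 points, higher in 2 pools and lower in 2. Its difference was 4.27 ± 1.18 points without thinning, higher in 4 of 4 pools, and 1.49 ± 1.88 at 2000 UMIs, higher in 3. The exact sign-flip permutation test over 4 pools gave p = 0.125, the smallest it can give, for Mki67, Mcm5, Cd34, Procr, Slamf1 and Mpo, p = 0.25 for Top2a and p = 0.5 for Gata1. At that p, none of the 8 genes of this family could pass 0.05, with or without adjustment. Without thinning, 2.63% of members of aged A held a Mki67 UMI against 4.30% of Cd48-zero cells, and 12.1% and 3.11% after thinning, which changes both the depth and, as classes were redrawn, which cells are members (1 of 38 and 4 of 33 members held one).

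**Figure D3:**
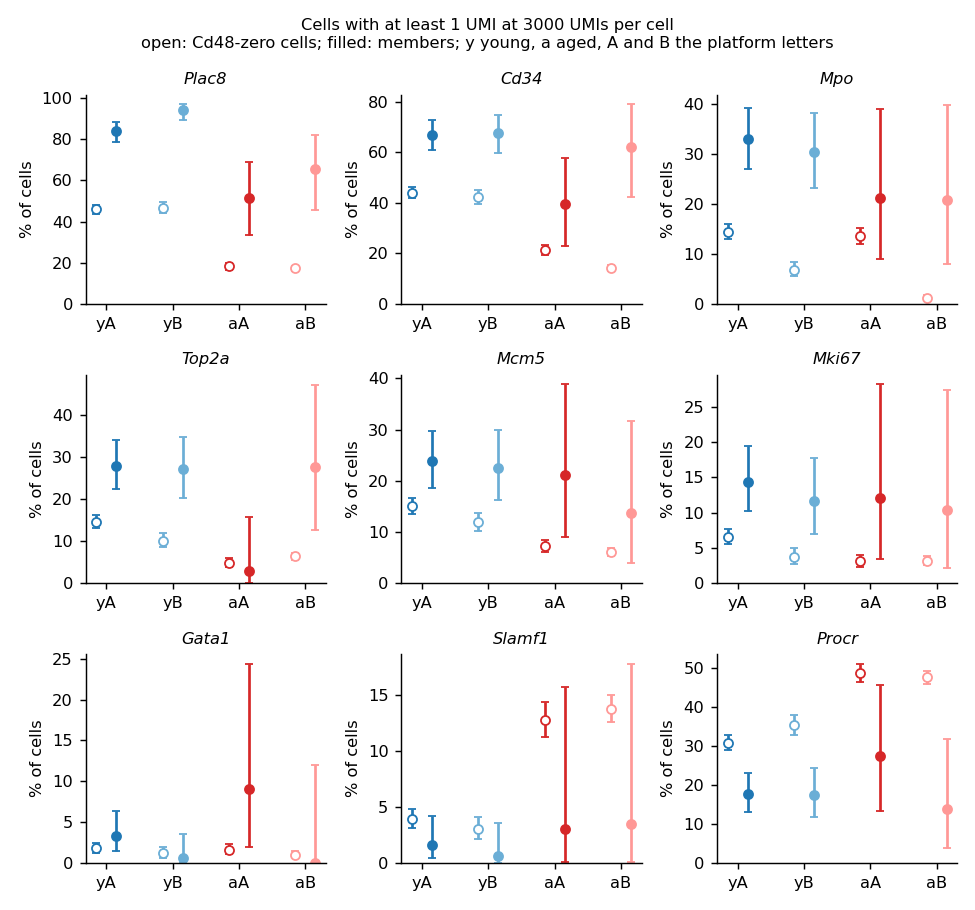
Percent of cells with at least 1 UMI of each gene after thinning to 3000 UMIs per cell, for Cd48-zero cells (open) and members (filled) of young A (yA), young B (yB), aged A (aA) and aged B (aB); error bars are exact 95% binomial intervals and each axis has its own scale. Members lie above Cd48-zero cells in all pools for Plac8, Cd34, Mpo, Mcm5 and Mki67 and below for Slamf1 and Procr.

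The second comparison set members beside the 1715 cells with a Flt3 UMI (1229, 220, 188 and 78 in young A, young B, aged A and aged B), which may carry any of the other genes of the rule. Of 8320 genes tested, 12 (0.144%) were called, 4 higher (0.0481%) and 8 lower (0.0962%) in members, with 455 at an unadjusted p below 0.05. Without the cells of mature type 8 were called, all lower, and 6 were called without young B and 21 without aged A. In cells thinned to 3000 UMIs, with classes redrawn, 135 of 3840 genes were called, 78 higher and 57 lower. The lower genes of the unthinned fit were led by Ctsg (chromosome 14, start 56099881, end 56102574), the granule protease cathepsin G. It was at 27.5, 52.5, 117 and 14.8 CPM in members and 195, 192, 321 and 65.6 CPM in Flt3+ cells. It was lower in each pool, with a log2 fold change of -2.09 ± 0.16 (SE; adjusted p = 2.1e-07, edgeR). Mpo was at 351, 379, 519 and 69.9 CPM in Flt3+ cells, above the members (-1.25 ± 0.11, SE; adjusted p = 1.03e-06, edgeR), and Ms4a3 of granulocyte and monocyte progenitors was lower too (-1.90 ± 0.26, SE). In thinned cells Ctsg was at -0.10 and Mpo at -0.08 and neither was called, and Ms4a3 was not tested. The members had been selected to lack Elane, another granule gene, and the Flt3+ cells had not.

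The basophil genes Prss34 (-3.05 ± 0.30, SE) and Mcpt8 (-2.58 ± 0.28, SE) were lower in 3 of 4 pools. Cpa3, a mast cell protease gene, had been held at 0 in members by the rule but not in Flt3+ cells. Prss34 was at 58.8, 21.4, 85.7 and 3.70 CPM in members and 423, 383, 66.8 and 4.37 CPM in Flt3+ cells, so the difference lay in the young pools. In thinned cells both stayed called, at -1.45 and -0.95, whereas DESeq2 without thinning called 0 of 6 tested mast cell and basophil genes. Thy1 was at 25.6, 26.9, 9.02 and 37.0 CPM in members against 9.53, 9.33, 4.61 and 7.29 CPM (1.52 ± 0.24, SE; adjusted p = 0.00494, edgeR), and Cd52, a lymphoid and myeloid surface peptide, at 166, 252, 203 and 207 CPM against 137, 139, 96.0 and 52.5 CPM (0.77 ± 0.15, SE). Without the cells of mature type these were 0.98 and 0.34 and not called, and Cd52 was not called without young B (0.78). Tnip3, Ap3s1 and Ltb were lower in 4 of 4 pools (-0.89, -0.83 and -0.50), and were not called without young A (-0.99, -0.83 and -0.60) or young B (-0.70, -0.76 and -0.35). In thinned cells Ap3s1 turned (0.08) and Tnip3 was not called (-0.81). Of the S phase list 0 of 21 genes were called (median 0.30) and of the stem cell identity list 0 of 17 (median -0.28), without thinning. In thinned cells 6 of 16 S phase genes were higher and none lower (median 0.62), 7 of 10 G2 and mitosis genes were higher (median 0.89), 8 of 11 stem cell identity genes were lower (median -0.69), and 2 of 9 granulocyte and monocyte genes were higher and none lower (median -0.01 over both this list and all genes).

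The third comparison asked what changed with age within members, with the letter as a block. Of 6697 genes tested 29 (0.433%) were called by edgeR, all higher in aged members, and 290 lay at an unadjusted p below 0.05. DESeq2 called 30, all higher. Without the filter on low counts edgeR called 89, 78 higher and 11 lower. The aged sums rest on 38 and 30 cells, or 221738 and 270375 UMIs, against 1053923 and 1448805 in young pools. In 10 of the 29 genes a single cell held over 50% of the UMIs of an aged pool, and 19 were spread more widely.

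Of the genes known to rise with age in stem cells 6 of 12 tested (of 15) were called and all 12 were positive (median 3.23; -0.01 over all genes). The list was chosen with age effects over all cells of these samples known, so its direction is not independent evidence. Nupr1 (ENSMUSG00000030717, chromosome 7 from 126623249 to 126630861), a stress-induced chromatin protein, was at 10.4 and 6.21 CPM in young and 356 and 314 CPM in aged members, 5.34 ± 0.33 on the log2 scale (SE; adjusted p = 0.000592, edgeR). It was seen in 6.33% and 2.98% of young and 68.4% and 60.0% of aged members. Mt1, a metallothionein, was at 25.6 and 11 against 257 and 181 CPM (3.64 ± 0.32, SE). Aldh1a1, a retinal dehydrogenase, at 13.3 and 11.7 against 99.2 and 115 CPM (3.09 ± 0.37, SE) and Jam2 and Sdpr were also called. Sult1a1, a sulfotransferase counted with the stem cell genes, was at 12.3 and 8.97 against 284 and 99.9 CPM (4.02 ± 0.36, SE). Clu, the chaperone clusterin, had 1 UMI in young and 47 in aged members, a ratio of summed CPM of 239 (exact 95% counting interval 40.9 to 9639). It was found in 17 of 38 and 6 of 30 aged members.

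Other calls had few young counts. Cldn5, a tight junction protein, had 1 UMI in young and 44 in aged members (ratio 224, exact counting interval 38.1 to 9037), and 70.0% of those of aged B lay in 1 cell. Plscr2 had 2 and 40 UMIs (ratio 102, interval 26.4 to 869) and Sbspon 1 and 16 (ratio 81.4, interval 12.6 to 3412). Clca3a1 had none in young and 18 in aged members, at least 30.5-fold higher against a floor of 3 counts over the young members. Jam2, Clec1a, Matn4, Sdpr, Gda, Ramp2, Selm, S100a6 and Gm14964 were also called and are named after their values were seen. In Ramp2, 60.0% of the UMIs of an aged pool lay in 1 cell.

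Of the MHC class II list, which presents antigen, 4 of 6 tested genes were called and all 6 were positive (median 1.79). With RLE size factors 1 was called and in thinned cells 2. Cd74, the invariant chain, was at 116 and 89.7 CPM in young and 654 and 510 CPM in aged members (2.50 ± 0.26, SE; adjusted p = 0.00773, edgeR), with 57.2% of the UMIs of aged A and 41.3% of those of aged B in 1 cell each, and it was seen in 12 of 38 and 16 of 30 aged members. H2-Aa was at 41.7 and 53.1 against 198 and 159 CPM, H2-Ab1 at 61.7 and 78.7 against 216 and 237 CPM and H2-Eb1 at 14.2 and 21.4 against 94.7 and 122 CPM. Without the cells of mature type edgeR called none of these 4 genes, with log2 fold changes of 2.38, 2.04, 1.79 and 2.81 in the order Cd74, H2-Aa, H2-Ab1 and H2-Eb1. In thinned cells H2-Aa (0.94) and H2-Eb1 (1.66) were not called.

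The largest folds rested on few cells. Ighg2b, an immunoglobulin heavy chain, had no UMI in young members and 9 and 2680 in aged A and B, where all 2680 lay in 1 cell. Igha had 897 of 952 UMIs of aged A in 1 cell. Iglc2 and Iglc3, light chain constant regions that are near copies of each other, lay wholly or nearly wholly in 1 cell per aged pool (48 of 49 and 71 of 71 UMIs for Iglc2). Slpi, a protease inhibitor, had 59 of 67 and 47 of 49 UMIs in 1 cell, and Irf8 had 12 of 22 and 34 of 34. The B and plasma list as a whole was at 1797 and 67.6 CPM in young and 10824 and 26471 CPM in aged members, with none of its 3 tested genes called by edgeR (1 by DESeq2, 2 of 3 in thinned cells and 3 of 5 without the filter on low counts).

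Without the 11 cells of mature type edgeR called 1 gene, Nupr1 (log2 fold change 5.36), with 248 at an unadjusted p below 0.05, and DESeq2 called 24, of which 23 were higher. All 19 genes spread over more cells were still higher, and DESeq2 called 18 of them. Leaving out aged pool B left 0 genes called by edgeR (520 at an unadjusted p below 0.05) and leaving out aged pool A left 1, each on 3 pools with no block. Leaving out young pool A or B left 66 and 35.

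**Figure D4:**
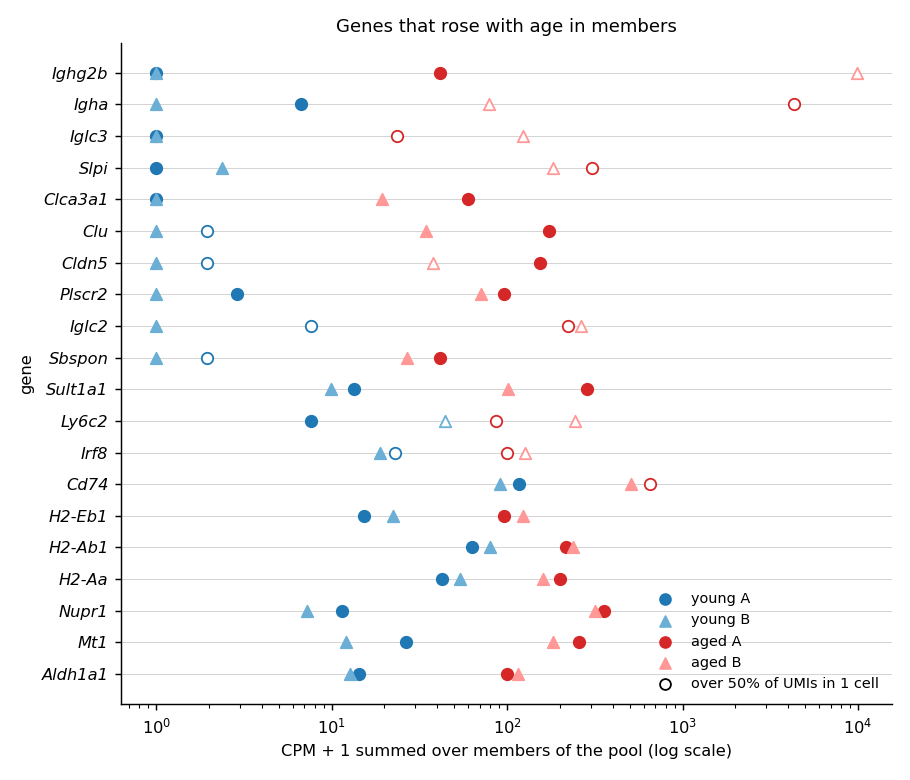
CPM + 1 (log axis) of the genes named for a rise with age, summed over the members of each pool (blue young, red aged; circles letter A, triangles letter B). Open symbols mark pools in which 1 cell held over 50% of the gene's UMIs. The immunoglobulin genes, Slpi, Ly6c2, Irf8, Cd74 and Cldn5 are open in at least 1 aged pool, whereas Nupr1, Mt1 and Aldh1a1 are filled in all 4.

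No gene of the S phase (0 of 20, median -0.34), G2 and mitosis (0 of 20, median -0.53), cell cycle regulator (0 of 13), lymphoid (0 of 11, median -0.59), sorting marker (0 of 12), ribosomal protein (0 of 77, median -0.18), oxidative phosphorylation (0 of 74, median -0.14), ribosome biogenesis (0 of 16), megakaryocyte and erythroid (0 of 17), mast cell and basophil (0 of 6), interferon (0 of 7) or SLAM (0 of 3) lists was called with age in members by edgeR with the filter on low counts. Without the filter 1 sorting marker and 1 G2 and mitosis gene were called lower and 1 megakaryocyte and erythroid gene higher. In thinned cells 1 lymphoid and 1 megakaryocyte and erythroid gene were called higher, and DESeq2 called 1 of the latter list. Of the 20 G2 and mitosis genes tested, 19 were negative by edgeR and all 20 by DESeq2, where the median was -0.94 and none was called. Immediate-early genes were positive in 8 of 8 and called in none by edgeR and in 2 by DESeq2 (median 2.08; 7 of 10 called without the filter and 1 of 6 in thinned cells), with the summed list at 1001 and 344 CPM in young and 4239 and 669 CPM in aged members. Aged A stood apart from the other pools there, in Cd48-zero cells too (4699 CPM against 1335, 446 and 971 CPM in young A, young B and aged B). Of the stem cell identity list Sult1a1 was the only call of 16 tested (median 0.85), and of the granulocyte and monocyte list the calls were Ly6c2 and Irf8.

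The last comparison asked whether age acted alike in members and in Cd48-zero cells, by a class by age term in a fit of both classes. Of 11394 genes 31 (0.272%) were called by edgeR, 26 with a more positive age effect in members (0.228%) and 5 with a more negative one (0.0439%). The median difference over all genes was -0.11, so values are to be read against it, and it was -0.02 with RLE size factors. Fits without a pool had a single pool in an age, so their spread came from the other age. DESeq2 called 14 genes, and 5 of the 19 genes named for this term. Without the cells of mature type the counts were 17 by edgeR and 3 by DESeq2, and 12 of the 31 were among the 17.

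Plac8 fell less with age in members. It went from 987 and 1320 to 528 and 603 CPM in members and from 277 and 366 to 72.7 and 80.4 CPM in Cd48-zero cells, a difference of 0.94 ± 0.17 on the log2 scale (SE; adjusted p = 0.000208, edgeR), and 0.95 but not called without young B. BC035044 went from 43.6 and 71.8 to 36.1 and 40.7 CPM in members and from 6.88 and 8.11 to 1.49 and 0.436 CPM in Cd48-zero cells (2.49 ± 0.60, SE; adjusted p = 0.0305, edgeR), and was not called without young A (2.34), young B (2.77), aged B (1.54) or the cells of mature type (2.24). Ctss, the lysosomal protease cathepsin S, went from 23.7 and 28.3 to 58.6 and 33.3 CPM in members and from 23.6 and 26.6 to 9.09 and 4.42 CPM in Cd48-zero cells (2.62 ± 0.48, SE), and 2.11 and not called without the cells of mature type. Sult1a1 rose in both classes and more so in members (1.53 ± 0.34, SE; not called without aged A at 0.58 or young B at 1.18), and Clu likewise from few young counts (4.12 ± 0.98, SE; 2.54 and not called without either aged A or young B).

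In the other direction, Slco3a1, an organic anion transporter, went from 71.2 and 52.5 to 31.6 and 22.2 CPM in members and from 22.4 and 21.6 to 42.9 and 28.4 CPM in Cd48-zero cells (-1.98 ± 0.39, SE; adjusted p = 0.00202, edgeR), and -1.73 and not called without young A. Both letters fell in members and rose in Cd48-zero cells, but members of aged A and B held only 7 and 6 Slco3a1 UMIs. Counts in these members were also low for BC035044 (8 and 11), Ctss (13 and 9), Itga2b (9 and 6) and Ffar2 (3 and 20). Itga2b, the platelet integrin CD41, was at -1.73 ± 0.42 (SE), and not called without young A (-0.71) or aged A (-1.60). Ffar2, a short-chain fatty acid receptor (-1.60 ± 0.39, SE), and the adaptor Fyb (-1.15 ± 0.25, SE) were not called without young A (-1.61 and -1.07), young B (-1.40 and -1.15) or aged B (-1.83 and -1.06). Hbb-bs was at -5.14, with 281 CPM in Cd48-zero cells of aged B, and was not called without aged B (-8.20). The immunoglobulin genes Jchain and Igkc, and Irf8 and Ly6c2, were not called without the cells of mature type (0.25, 0.35, 1.21 and -8.18). Iglc2 was not called there either, although its value was 4.62 (5.39 with them), and Iglc3 and the plasma cell chaperone Mzb1 then fell under the filter on low counts. With all barcodes Iglc2 (-0.51), Mzb1 (-0.01), Jchain (-0.12) and Igkc (-1.82) changed sign. Iglc3 was not called in thinned cells (8.20), without young A (9.91) or without aged B (7.36), and Mzb1 not in thinned cells (2.89), without young B (3.08) or without aged B (2.66). In thinned cells Slco3a1 (-1.47), Itga2b (-2.05), Ffar2 (-1.06), Hbb-bs (-1.23), Sult1a1 (1.45), Clu (1.82) and BC035044 (2.59) were not called. Hes1 was not called without young A (8.07), young B (2.36) or in thinned cells (0.19), and it changed sign without aged A (-4.93), the pool in which it was seen most (550 CPM in members and 329 CPM in Cd48-zero cells, against 0 to 9.57 CPM in the other pools).

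**Figure D5:**
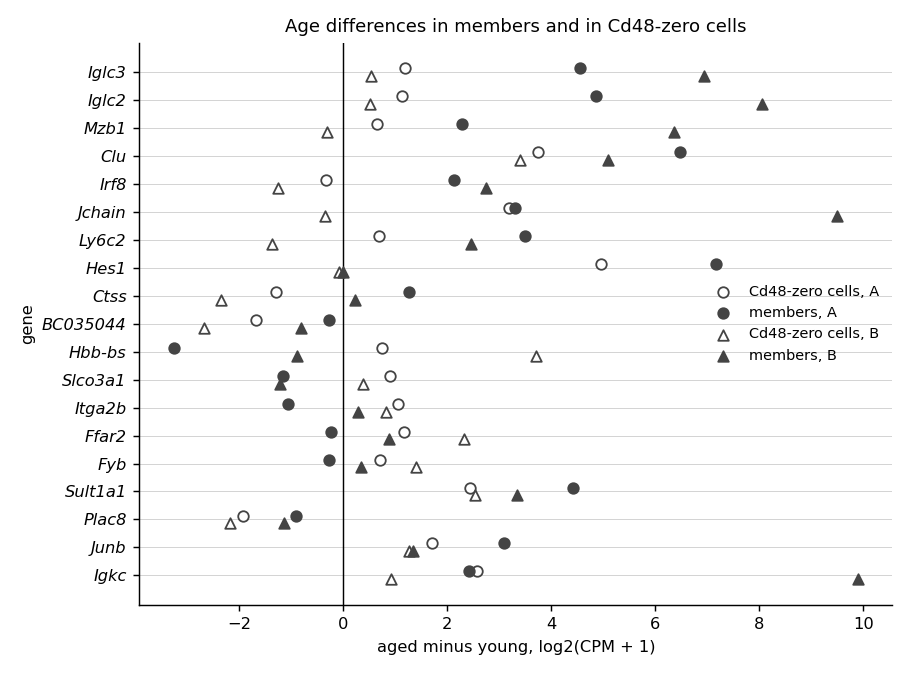
Aged minus young difference in log2(CPM + 1) for genes whose age effect differed between classes, in members (filled) and Cd48-zero cells (open), for letter A (circles) and B (triangles). For Slco3a1 the filled symbols lie left of 0 and the open ones right of it, and for Plac8 all lie left of 0 with members nearer to it.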

How the data were processed

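The deposited files hold raw UMI counts per gene and cell barcode, which per the labels and the methods the authors made with Cell Ranger 2.2.0 from 10x v2 libraries on GRCm38. No source used here names the annotation release. Of 28692 gene IDs in the files, 28339 matched GENCODE M21, and 67 genes with a repeated symbol were added together. The barcodes of young A, young B, aged A and aged B held 42244876, 18744814, 23725289 and 37416508 UMIs. No doublet caller was run.

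UMIs were summed per pool and class, with at least 10 cells each, and tested with edgeR 4.0.16 (TMM, filterByExpr, quasi-likelihood) in R 4.3.3. The threshold was an adjusted p of 0.05, and DESeq2 1.42.0 was the alternative. The SE is the log2 fold change divided by the root of the F statistic. The 9 genes of the rule were left out of every count. The letter was the block for age and the pool for classes. The letters mark the facility and so pair the pools; their deviations from the mean of an age correlated at 0.391 across 6698 genes (log2 of CPM plus 10). Shares of cells used exact binomial intervals (95%) and cells thinned with a fixed seed. Files give nothing to separate PCR copies beyond UMIs, so intervals cover counting error.

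Members, gene lists and tests were chosen with earlier results of these data known. Named genes were the called list genes of lowest p and, over all genes, up to 10 called genes per direction ranked by log2 fold change and moving alike in every pool; lists without a called gene are given by counts and medians. Other settings were tried for depth, filter, scaling, block, the gate and single pools, and those on mature cell types and on 1 tolerated UMI were added after seeing the data.

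The tests were run on simulated data with known changes, in which the share of false calls by edgeR ran above the nominal one and few 2-fold changes with age were found. Some list genes are counted but not reported here by name.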

Additional observations from a re-analysis of the deposited data

Results flagged for a closer look

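Effects of age that differed between members and Cd48-zero cells were singled out by the test of the class by age term (edgeR). It called 31 genes. Those with the largest difference whose sign was the same on both letters were, on the log2 scale and more positive in members, Iglc3 (10.27), Iglc2 (5.39), Mzb1 (4.12), Clu (4.12), Irf8 (3.39), Jchain (3.09), Ly6c2 (3.07), Hes1 (2.98), Ctss (2.62) and BC035044 (2.49). More negative were Hbb-bs (-5.14), Slco3a1 (-1.98), Itga2b (-1.73), Ffar2 (-1.60) and Fyb (-1.15). Iglc3 had no UMI in young members and 38 in aged members, so its 10.27 is a fitted value over 0 counts and not a measured size. Hes1 had no UMI in members of either age on letter B, so its difference there was that of Cd48-zero cells alone (3.69 and 3.43 CPM). With all barcodes, Iglc2 (-0.51), Mzb1 (-0.01) and Jchain (-0.12) changed sign. No group held 4 or more pools, so single pools were not tested for standing apart.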

How the results depend on the processing

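Of 76 named genes called between members and Cd48-zero cells, 52 stayed called with every pool left out in turn and 71 kept their direction. Of 20 named for age, 0 stayed called in all 4, and of 10 against Flt3+ cells 4. Calls for age went from 29 to 89 without the low-count filter, 14 with RLE size factors, 11 without the 5% of cells with the most UMIs, 1 without cells of other types and 0 to 66 with a pool left out. Members against Cd48-zero cells gave 1092 calls, 715 thinned to 3000 UMIs, 2610 with 1 UMI allowed and 454 to 1342 with a pool left out. Members against Flt3+ cells gave 12, 48 without the filter, 135 thinned, 3 by DESeq2 without cells of other types and 6 to 21 with a pool left out. The class by age term gave 31, 14 by DESeq2, 66 with 1 UMI allowed, 17 and 3 (edgeR and DESeq2) without cells of other types and 22 to 81 with a pool left out. Without the replicate block (letter or pool), edgeR called 1 gene for age (162 at an unadjusted p below 0.05), 0 against Cd48-zero cells (847), 0 against Flt3+ cells (68) and 0 for the class by age term (213), and all named genes kept their direction. The causes were not tested.

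The share difference of -4.33 points was -2.07 with at least 2 Cd48 UMIs, -9.90 with 1 UMI allowed and -6.55 to -2.11 with a pool left out. The Mki67 difference was 10.8 points without thinning and 3.47 at 2000 UMIs, and Mcm5 21.3 without thinning. Signs turned for Irf8 with age (-0.32 without cells of other types, DESeq2), Hba-a2 (-2.27 to 0.31 with a pool left out, positive without aged B), Ap3s1 against Flt3+ cells (0.0777 thinned) and, for the class by age term, Iglc2 (-0.51), Mzb1 (-0.0108), Jchain (-0.12) and Igkc (-1.82) with all barcodes, Ly6c2 (-8.18 and, by DESeq2, -2.86) without cells of other types, Hes1 (-4.93 to 8.07 with a pool left out, negative without aged A), Hbb-bs (1.30 with 1 UMI allowed) and Junb (-0.12 thinned). With 2 Cd48 UMIs the gene tests were not run (7 members in aged A), nor was the gate with 1 UMI against Flt3+ cells or the split by Slamf1. The 68 aged members limit what age tests can show.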
